A study of Mus musculus with 66 samples.

Results

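The comparison described here is between hippocampi of mice given brain extract from Alzheimer's disease (AD) and hippocampi of mice given control extract (Ctrl), in the youngest and earliest groups of a study of seeded tauopathy. It was defined by the sample labels alone and holds 11 of the 66 libraries, 6 AD and 5 Ctrl. Both groups are C57BL/6 mice, a common inbred strain, labelled 3 months old and collected 1 month post injection (mpi). Every mouse of the study was injected, so the Ctrl group shares the injection and differs in the source of the extract. Further groups used for context are the 3-month cohort at 3 mpi (5 AD and 5 Ctrl libraries) and 5 mpi (3 AD and 5 Ctrl), and the 12-month cohort at 1 mpi (6 AD and 5 Ctrl). The labels do not say whether age was counted at injection or at collection, how many brains gave the extract, which sex the mice had, or that each library is a separate animal. P-values below therefore measure the spread between libraries.

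Extract from AD brain carries aggregated tau, the microtubule-associated protein of neurons, and such seeds can draw endogenous tau into further aggregates. Microglia, the resident macrophages of the brain, depend on the growth factor CSF1 and its receptor, and they sense lipids and debris through TREM2, which signals through the adaptor TYROBP and the kinase SYK. Near aggregates they are known to take up a disease-associated state with induction of Trem2, Apoe, Cst7 and lysosomal genes, while oligodendrocytes make the myelin of the fibre tracts that cross the hippocampus.

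Levels are the deposited scaled CPM, that is reads relative to the total of their library, divided by 1 further factor per library. The 11 libraries held between 44948800 and 65907005 reads, the deepest being AD library 6. All 15 markers of hippocampal neurons were measured, with their mean log2 level between 6.03 and 6.34 in AD libraries and between 5.87 and 6.30 in Ctrl libraries. Neighbouring tissue varied more. The mean log2 level of 20 choroid plexus genes was 2.64 in AD library 3 and between 4.68 and 6.46 in the other 5 AD libraries, against 4.88 to 6.30 in Ctrl libraries. High Xist, the RNA that coats the inactive X chromosome, was found in AD libraries 1, 3 and 5 and in Ctrl library 2. Y-linked Ddx3y was found in AD libraries 2, 4 and 6 and in Ctrl libraries 1, 3, 4 and 5.

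No gene of the 19976 tested passed at an adjusted p under 0.05 (limma, Benjamini-Hochberg, percent called 0). At an unadjusted p under 0.05 stood 1006 genes (5.04%), 575 higher in AD (2.88%) and 431 lower (2.16%). In 20 genes (0.1%) every AD library lay above every Ctrl library, and in 16 genes (0.0801%) every AD library lay below. The quasi-likelihood test of edgeR on whole reads recovered from the values also called 0 genes, with 1010 at an unadjusted p under 0.05. DESeq2 called 2 genes, Igkv1-135 higher and Gpr151 lower. The median log2 fold change of all genes was 0.01, and 10734 genes (53.7%) were higher in AD. Other scalings moved that median to no more than 0.01 and to no less than 0.0008, but the share of higher genes among those at an unadjusted p under 0.05 was 47.8% with relative-log-expression factors and 49.6% with upper-quartile factors. Values below are therefore estimates with their errors, and none is a call unless said to be.

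The genes with the smallest p-values among the higher ones belonged to microglial signalling and engulfment. Cyth4, a guanine nucleotide exchange factor for ARF GTPases of myeloid cells, had 23.7, 18.5, 23.6, 22.9, 20.3 and 18.1 in AD libraries 1 to 6, against 17.0, 17.4, 16.1, 13.95 and 15.8 in Ctrl libraries 1 to 5. The groups did not overlap, and AD libraries 1, 3 and 4 were the highest. The log2 fold change was 0.38 (SE 0.090, limma adjusted p = 0.796).

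Csf1, the growth factor on which microglia depend, had 36.6, 30.3, 30.8, 36.8, 33.6 and 28.8 in AD libraries 1 to 6, against 24.7, 25.2, 28.9, 25.3 and 28.8 in Ctrl libraries 1 to 5. All AD libraries were above the Ctrl mean of 26.6 ± 2.09 (SD, n = 5), and AD library 6 lay just under Ctrl libraries 3 and 5. The log2 fold change was 0.29 (SE 0.071, limma adjusted p = 0.796). Csf1r, its receptor, averaged 118 ± 15.6 in AD libraries (SD, n = 6) and 99.9 ± 4.65 in Ctrl libraries (SD, n = 5), a log2 fold change of 0.23 (limma adjusted p = 0.916). AD libraries 1, 4 and 6 were the highest and AD libraries 2 and 3 lay within the Ctrl range.

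Dock1, which activates RAC1 during engulfment of dying cells, had 57.6, 47.0, 51.3, 57.2, 49.97 and 52.7 in AD libraries 1 to 6, against 40.4, 44.1, 48.8, 43.5 and 47.9 in Ctrl libraries 1 to 5. AD library 2 alone lay under the highest Ctrl library. The log2 fold change was 0.22 (SE 0.053, limma adjusted p = 0.796). On GRCm38, Cyth4 lies on chromosome 15 at 78597047 to 78622019, Csf1 on chromosome 3 at 107741048 to 107760469, and Dock1 on chromosome 7 at 134670654 to 135173639. All are protein-coding.

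**Figure D1:**
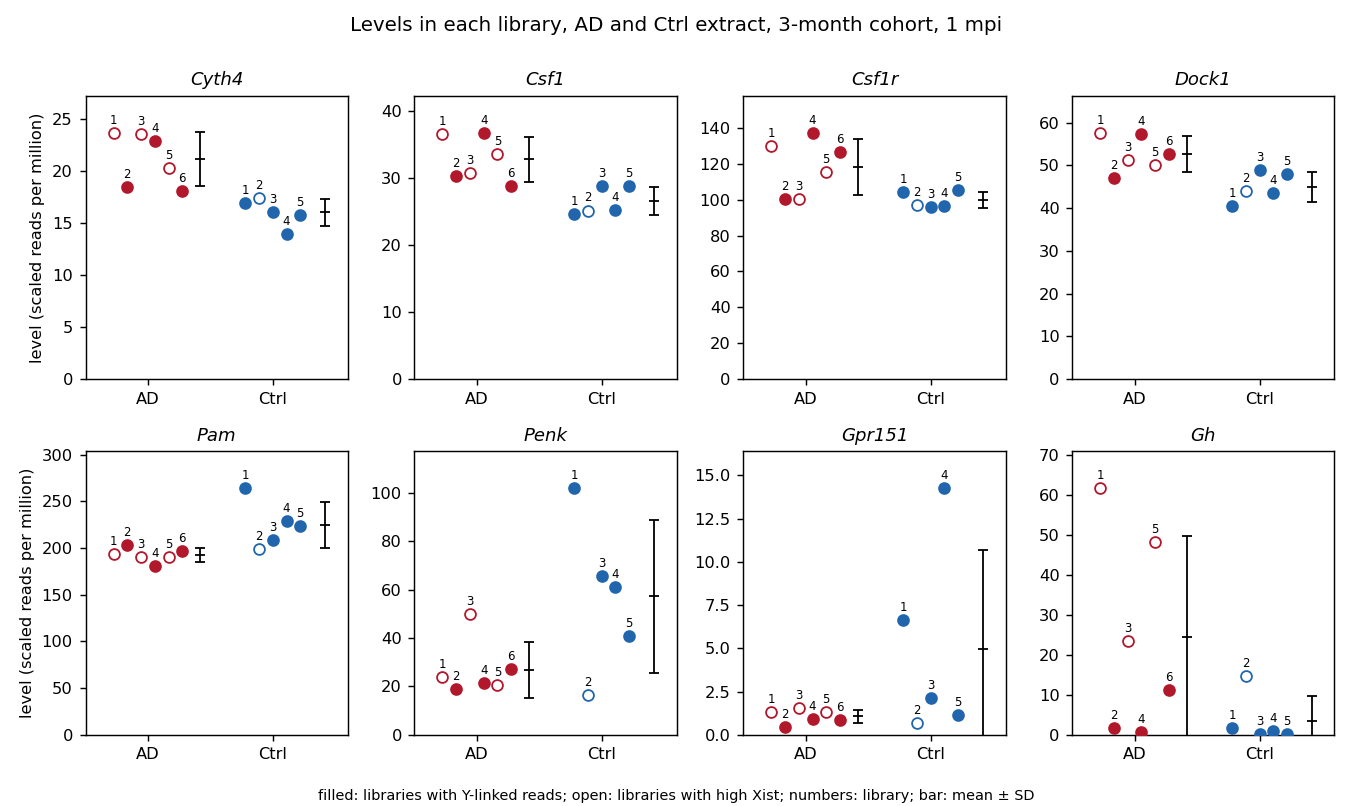
Levels of 8 named genes (scaled CPM, linear axes from 0) in each AD library (red, left) and Ctrl library (blue, right); numbers give the library, open circles have high Xist, bars give mean ± SD and are cut at 0. Cyth4 shows 2 groups without overlap, Penk and Gpr151 are spread over Ctrl libraries, and Gh is highest in open circles.

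Across the list of 30 genes of CSF1 and TREM2 signalling, which was drawn up knowing the values of Csf1, Cyth4 and Syk, 28 members were higher in AD and 13 had an unadjusted p under 0.05, all higher, with a median log2 fold change of 0.22 against 0.01 for all genes. Beside this and the lists below, 53.7% of all genes were higher in AD. At an unadjusted p under 0.05, 2.88% of all genes were higher and 2.16% lower. The lists below were also drawn up with earlier results of these data known. Members of the CSF1 and TREM2 list run from ligand to nucleus. Of these, 2 were lower in AD, the lowest at a log2 fold change of -0.35. The kinase Btk, a SYK-pathway kinase, had 0.33, with 2.79, 1.88, 2.13, 3.26, 2.81 and 2.31 in AD libraries 1 to 6, against 1.64, 2.10, 1.83, 1.79 and 1.62 in Ctrl libraries 1 to 5. The integrin chain Itgb2 had a log2 fold change of 0.33, the transcription factor Irf8 0.33 and Spi1, which encodes PU.1, 0.27. Trem2 had 0.26 (higher than the Ctrl average in 4 of 6 AD libraries), Inpp5d, a phosphatase that opposes this pathway, 0.22, and Syk 0.17 (limma adjusted p = 0.916 for each of these 7). In bulk tissue, fewer or more microglia and less or more RNA per microglial cell cannot be told apart.

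These differences were unevenly carried. The mean log2 level of the list was 3.60, 3.11, 3.26, 3.63, 3.43 and 3.39 in AD libraries 1 to 6, against 3.35, 3.06, 3.23, 3.14 and 3.29 in Ctrl libraries 1 to 5. AD libraries 1 and 4 were the highest, and AD library 2 was lower than all Ctrl libraries but 1. Without AD libraries 1 and 4, an alternative added after seeing the data, 25 of the 30 members were higher, 4 had an unadjusted p under 0.05 and the median was 0.10. Cyth4 was then 0.31, Csf1 0.21 and Csf1r 0.14.

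Upstream bases of a few of these genes are printed to show which carry the core letters of the PU.1 motif. The sequences are the 250 bases before the annotated start, from RefSeq on GRCm38.p6, written toward the gene, with the motif in capitals.
Cyth4 (chr15:78596797-78597046, plus strand): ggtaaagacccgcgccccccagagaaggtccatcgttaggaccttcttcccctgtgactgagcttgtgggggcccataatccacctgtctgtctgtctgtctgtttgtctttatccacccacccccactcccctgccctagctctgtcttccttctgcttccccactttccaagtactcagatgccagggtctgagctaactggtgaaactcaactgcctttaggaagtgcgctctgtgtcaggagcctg
Csf1 (chr3:107760470-107760719, minus strand): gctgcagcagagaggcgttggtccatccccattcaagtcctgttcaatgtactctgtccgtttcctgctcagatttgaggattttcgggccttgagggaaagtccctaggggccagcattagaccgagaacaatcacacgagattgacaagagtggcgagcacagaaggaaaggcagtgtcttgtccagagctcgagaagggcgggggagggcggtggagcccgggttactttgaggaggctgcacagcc
Trem2 (chr17:48346151-48346400, plus strand): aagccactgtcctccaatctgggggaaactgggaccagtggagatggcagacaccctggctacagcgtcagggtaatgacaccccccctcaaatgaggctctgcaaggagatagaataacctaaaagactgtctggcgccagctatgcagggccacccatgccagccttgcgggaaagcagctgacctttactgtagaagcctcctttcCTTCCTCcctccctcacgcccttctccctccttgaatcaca
Inpp5d (chr1:87620062-87620311, plus strand): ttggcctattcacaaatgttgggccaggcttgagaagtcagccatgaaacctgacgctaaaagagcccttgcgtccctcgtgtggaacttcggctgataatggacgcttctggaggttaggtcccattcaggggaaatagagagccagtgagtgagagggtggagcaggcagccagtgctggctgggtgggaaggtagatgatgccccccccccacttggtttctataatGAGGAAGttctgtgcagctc
The letters searched were GAGGAAG on both strands. Among 20 list members with an entry, 5 (25%) hold them in these 250 bases, namely Trem2, Vav1, Inpp5d, Dock2 and Cd33, against 1762 of 13616 tested genes with an entry (12.9%). Trem2 holds the reverse complement, and Cyth4 and Csf1 hold neither form in this window. A match is a description of letters, and the part of PU.1 in these differences was not tested.

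Other microglial and immune lists, which share members with the first, also lay mostly above 0. Of 30 disease-associated microglial genes, 27 were higher in AD and 6 had an unadjusted p under 0.05, all higher, with a median log2 fold change of 0.18. Cst7, a cystatin that inhibits lysosomal proteases, had 0.52, with 2.46, 1.153, 1.67, 3.34, 3.70 and 1.08 in AD libraries 1 to 6, against 2.33, 0.317, 1.59, 0.522 and 1.67 in Ctrl libraries 1 to 5. AD libraries 1, 4 and 5 were the highest, and the groups overlapped. Clec7a, a pattern receptor, had 0.53 and Itgax, the integrin CD11c, 0.47, each above the Ctrl average in AD libraries 1, 4 and 5 alone.

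Homeostatic microglial genes stood higher as well, 18 of 20, with 6 at an unadjusted p under 0.05 and a median of 0.13. They included Cx3cr1, the fractalkine receptor, at 0.18. The 3 lists together hold 76 different genes, of which 69 were higher and 22 had an unadjusted p under 0.05. Of 17 complement genes, 12 were higher and 4 had an unadjusted p under 0.05, with a median of 0.12.

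C3, the central complement component, had the largest of these, 0.93 (SE 0.43, limma adjusted p = 0.916). Its levels were 28.0, 12.7, 21.0, 73.4, 65.3 and 20.4 in AD libraries 1 to 6, against 11.8, 7.44, 30.7, 9.68 and 31.5 in Ctrl libraries 1 to 5. AD libraries 4 and 5 were above all Ctrl libraries and the other AD libraries lay among them.

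Of 17 antigen presentation genes, 15 were higher with 1 at an unadjusted p under 0.05 and a median of 0.14, and of 30 lysosome and autophagy genes, 25 were higher with 6 at an unadjusted p under 0.05 and a median of 0.08. Over all genes 2.88% were higher at that threshold, so 1 antigen presentation gene of 17 is little more than that share. Ctss, a microglial lysosomal protease, had 0.30 and Ctsd, the main aspartyl protease of lysosomes, 0.24. Without AD libraries 1 and 4, the medians were 0.08 for disease-associated microglial genes, 0.07 for homeostatic ones and 0.04 for lysosome genes, but -0.01 for complement and -0.08 for antigen presentation, with 8 of 17 and 4 of 17 members higher. Markers of infiltrating leukocytes gave 13 of 19 higher and a median of 0.06, and cytokine and NF-kB genes 17 of 24 and 0.06. Without AD libraries 1 and 4 they too turned, to 4 of 19 and -0.069 and to 7 of 24 and -0.027. Engulfment genes gave 14 of 22 and 0.05. Leaving out AD library 4 alone moved the medians to 0.11 for disease-associated microglial genes and 0.014 for complement, and leaving out AD library 1 alone moved that of antigen presentation to 0.064.

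**Figure D2:**
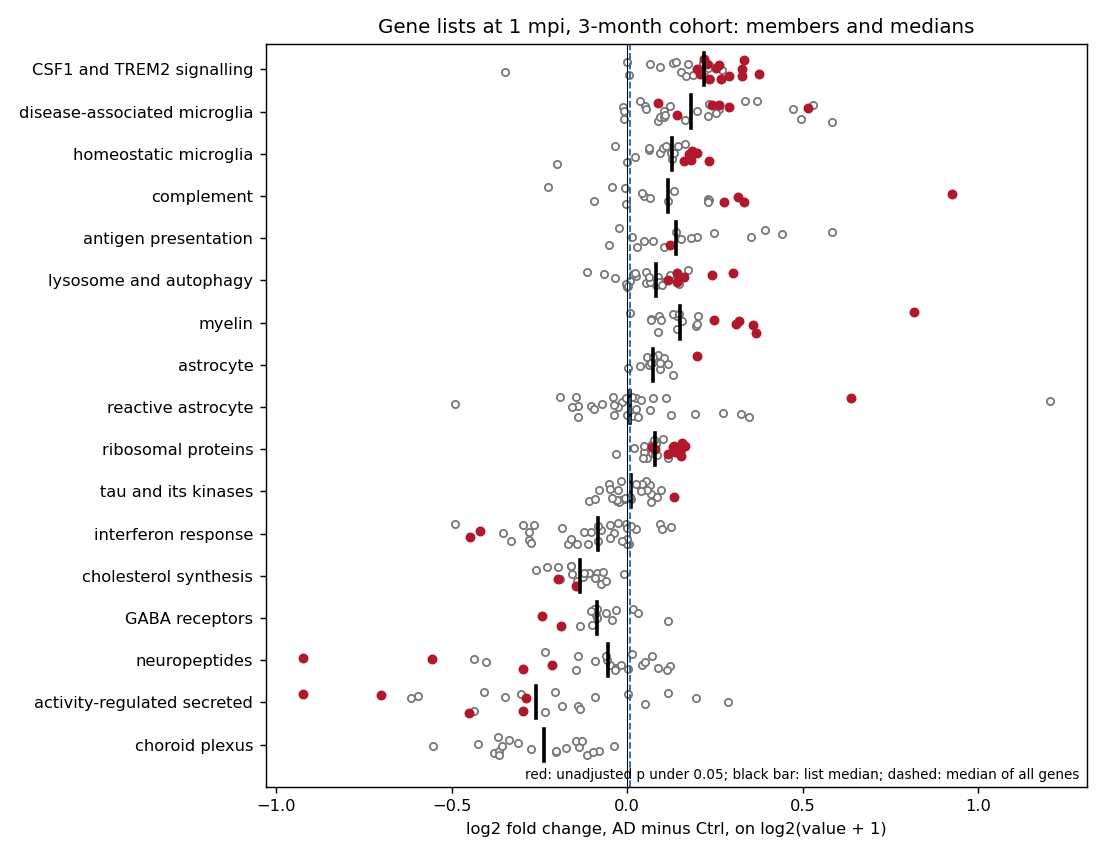
Log2 fold changes, AD minus Ctrl, of every tested member of 17 gene lists (1 row per list; red points have an unadjusted p under 0.05, black bars are list medians, the dashed line is the median of all genes). Microglial, myelin and ribosomal members lie mostly to the right of 0, and cholesterol synthesis and choroid plexus members lie to its left.

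Oligodendrocyte genes were higher too. All 20 myelin genes were higher in AD, 6 with an unadjusted p under 0.05, and the median log2 fold change was 0.15 (19 of 20 were higher with relative-log-expression factors). Leaving out 1 library moved this median to between 0.075 (without AD library 1) and 0.25 (without AD library 3). Klk6, a secreted serine protease of mature oligodendrocytes, had 5.70, 3.08, 4.64, 5.16, 5.90 and 2.39 in AD libraries 1 to 6, against 1.01, 1.09, 3.84, 2.05 and 3.00 in Ctrl libraries 1 to 5. Its log2 fold change was 0.82 (SE 0.23, limma adjusted p = 0.916), higher than the Ctrl average in 6 of 6 AD libraries. Mbp, myelin basic protein, had 2491, 1505, 1351, 2094, 1598 and 2117 in AD libraries 1 to 6, against 1433, 1547, 1338, 1393 and 1639 in Ctrl libraries 1 to 5. AD libraries 1, 4 and 6 were above all Ctrl libraries and AD libraries 2, 3 and 5 lay among them.

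Without AD libraries 1 and 4 the myelin median was 0.01, with 10 of 20 members higher. Genes of oligodendrocyte precursors gave 12 of 13 higher and a median of 0.11, led by Bcas1 at 0.33 and Olig1 at 0.24. Their median was 0.040 without AD library 6, 0.058 without AD libraries 1 and 4 (9 of 13 higher) and 0.047 with a myelin covariate. With the myelin level of each library as a covariate, the CSF1 and TREM2 median was 0.17, with 27 of 30 members higher, and 5 had an unadjusted p under 0.05. How far fibre tract content contributes to these differences was not tested.

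Astrocytes gave a mixed picture. All 15 astrocyte markers were higher (14 with relative-log-expression or upper-quartile factors), with a median of 0.07 and 1 at an unadjusted p under 0.05, S100b at 0.20. That 1 of 15 stands beside 2.88% of all genes higher at that threshold. Of 32 genes of reactive astrocytes, 16 were higher, with a median of 0.01. Gfap, the intermediate filament of reactive astrocytes, had 912, 591, 1908, 927, 746 and 836.5 in AD libraries 1 to 6, against 852, 501, 1712, 988.5 and 850 in Ctrl libraries 1 to 5. AD library 3 and Ctrl library 3 stood far above the rest, and the log2 fold change was 0.02 (SE 0.22). Serpina3n, an inhibitor of serine proteases in the same cells, was likewise highest in those libraries, at 269 in AD library 3 and 197 in Ctrl library 3.

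Genes of the cytosolic ribosome were slightly higher. Of 25 ribosomal protein genes 24 were higher in AD under each scaling tried, with a median log2 fold change of 0.08, and 10 had an unadjusted p under 0.05. Rpl35, of the large subunit, had 106.0, 89.6, 94.8, 97.4, 93.2 and 94.9 in AD libraries 1 to 6, against 89.1, 86.6, 90.3, 79.2 and 82.5 in Ctrl libraries 1 to 5. AD library 2 lay below Ctrl library 3 and the other AD libraries lay above all Ctrl libraries, and the log2 fold change was 0.16 (SE 0.042, limma adjusted p = 0.916). Rpl31, also of the large subunit, ran from 119 to 134 in AD libraries, against 110 to 116 in Ctrl libraries, with no overlap.

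Mitochondrial ribosomal genes Mrps21 (0.16) and Mrps18b (0.18) were among the 15 smallest p-values of higher genes, with Ppcdc, which acts in coenzyme A synthesis (0.19). Ppcdc had 12.1 to 13.7 in AD libraries, against 10.1 to 12.0 in Ctrl libraries, with no overlap. Nuclear genes of the respiratory chain gave 19 of 24 higher with a median of 0.02, and mitochondrially encoded genes 9 of 13 with 0.04. Without AD libraries 1 and 4 the ribosomal median was 0.06 with 23 of 25 members higher, and 3 had an unadjusted p under 0.05.

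**Figure D3:**
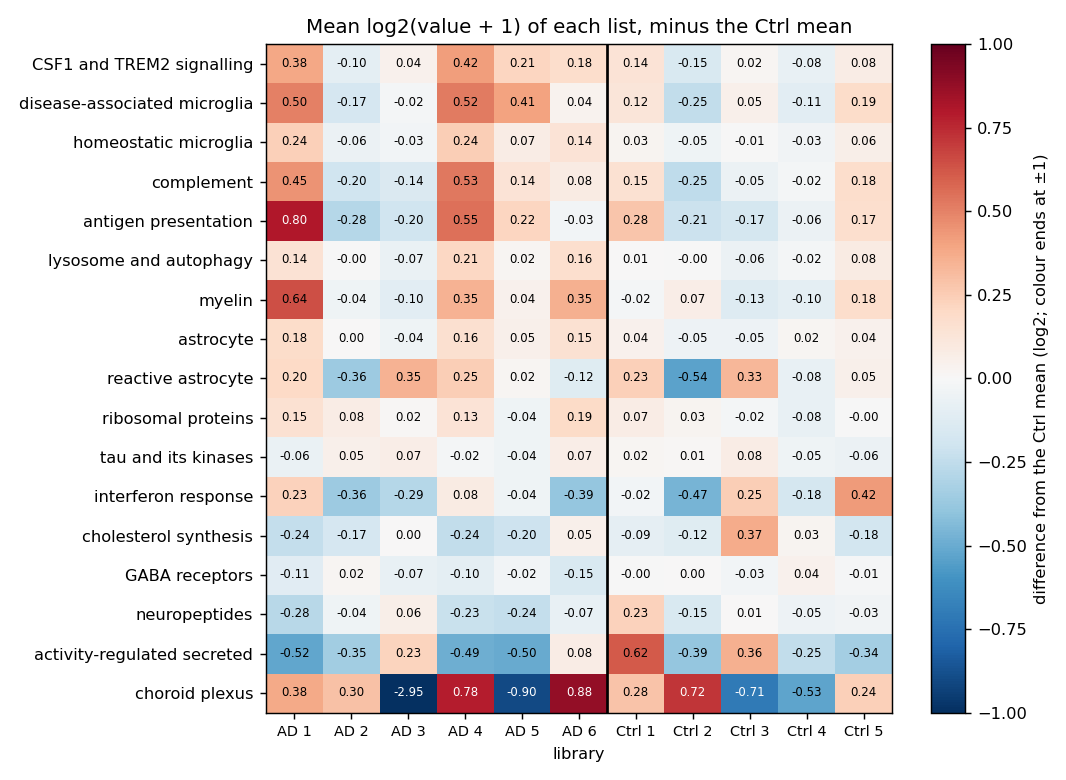
Mean log2(value + 1) of 17 gene lists in each AD library (left) and Ctrl library (right), as the difference from the Ctrl mean, with the value printed in each cell and the colour ending at ±1. Microglial and antigen presentation lists are reddest in AD libraries 1 and 4, and choroid plexus genes are lowest in AD library 3.

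Pam and Penk were among the 15 lower genes with the smallest p-values, with genes of other kinds such as Rps6ka6, a ribosomal S6 kinase (-0.30), Suz12, a Polycomb subunit (-0.13), and Nefm, a neurofilament chain (-0.18). Pam, which amidates peptide hormones, had 194, 204, 190.0, 181, 191 and 197 in AD libraries 1 to 6, against 264, 199, 208, 229 and 223 in Ctrl libraries 1 to 5. All AD libraries lay below the Ctrl mean, and AD library 2 lay above Ctrl library 2. The log2 fold change was -0.21 (SE 0.050, limma adjusted p = 0.796), and Pam lies on chromosome 1 at 97795114 to 98095646. Penk, the precursor of enkephalins, had 24.0, 18.8, 49.9, 21.4, 20.4 and 27.0 in AD libraries 1 to 6, against 102.0, 16.6, 65.6, 61.4 and 40.8 in Ctrl libraries 1 to 5. Ctrl library 2 was the lowest of all 11, Ctrl library 5 lay below AD library 3 alone, and Ctrl libraries 1, 3 and 4 lay above every AD library. Its log2 fold change was -0.92 (SE 0.27, limma adjusted p = 0.916). Without Ctrl library 2 it was -1.30 and passed (limma adjusted p = 0.0117), together with Rtl1, an imprinted retrotransposon-derived gene, at -0.78 (limma adjusted p = 0.0320). Leaving out the Ctrl library with the lowest Penk must enlarge the Penk difference, so this pass is no added support. No other fit with 1 library left out called a gene.

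Of 24 genes of neuropeptides and their processing, 16 were lower and 4 had an unadjusted p under 0.05, all lower, with a median of -0.05 (-0.019 without AD library 1). Besides Pam and Penk these were Adcyap1, the precursor of PACAP, at -0.56 and Pcsk1, a convertase that cleaves prohormones, at -0.30. Without AD libraries 1 and 4, 12 of the 24 were lower.

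The list of 22 secreted and related genes that neuronal activity induces was drawn up with earlier results of these data known, so its counts are no independent support. Of the 22, 17 were lower and 5 had an unadjusted p under 0.05, all lower, with a median log2 fold change of -0.26. The 5 were Penk, Pcsk1, Acvr1c, a receptor for activins and related ligands, at -0.70, Ptgs2, which makes prostaglandins, at -0.45, and Rgs4, a regulator of G protein signalling, at -0.29. Inhba, which encodes a chain of activin, had 10.5, 16.8, 53.5, 11.6, 11.5 and 38.9 in AD libraries 1 to 6, against 95.1, 15.1, 84.1, 12.8 and 14.1 in Ctrl libraries 1 to 5. Ctrl libraries 1 and 3 and AD libraries 3 and 6 were the highest, and the remaining libraries of both groups lay close together. Leaving out those 4 libraries moved the list median to -0.14, with 18 of 22 lower, and leaving out Ctrl library 1 alone moved it to -0.11. Immediate early genes, which respond to activity within minutes, gave 14 of 20 higher with a median of 0.06, which turned to -0.040 without AD library 2. It lay between -0.040 and 0.15 with 1 library left out. Fos, one of them, had 0.07.

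The upstream bases of Pcsk1 are printed because they hold the full cAMP response element, the letters TGACGTCA, here in capitals.
Pcsk1 (chr13:75089607-75089856, plus strand): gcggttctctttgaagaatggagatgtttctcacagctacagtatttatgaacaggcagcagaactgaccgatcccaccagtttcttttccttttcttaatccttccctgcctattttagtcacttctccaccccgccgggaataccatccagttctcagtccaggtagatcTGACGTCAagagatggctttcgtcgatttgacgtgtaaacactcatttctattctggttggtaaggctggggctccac
Among 15 members of the list with an entry, 2 (13.3%), Scg2 and Pcsk1, hold these letters in the 250 bases before the start, against 368 of 13616 tested genes (2.7%). The letters are their own reverse complement, so both strands read alike.

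Gpr151, an orphan receptor known from habenular neurons, had 1.31, 0.470, 1.53, 0.930, 1.30 and 0.824 in AD libraries 1 to 6, against 6.66, 0.679, 2.14, 14.2 and 1.151 in Ctrl libraries 1 to 5. Ctrl libraries 1 and 4 stood far above the rest, and Ctrl libraries 2 and 5 lay within the AD range. Its limma log2 fold change was -1.05 (SE 0.33, adjusted p = 0.916), and DESeq2 gave -2.24 (adjusted p = 0.0415).

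Some other habenular genes were high in the same libraries, while the list of thalamus and habenula markers was highest in AD library 1. Slc5a7, the choline transporter of cholinergic neurons, was 4.11 and 6.83 in Ctrl libraries 1 and 4 and ran from 0.949 to 1.83 in the other Ctrl libraries, against 0.733 to 1.47 in AD libraries. Tac2, a tachykinin precursor, was 6.12 and 7.03 in Ctrl libraries 1 and 4. Of 15 thalamus and habenula markers, 8 were lower with a median of -0.01. Their mean log2 level was 5.12 in AD library 1 and 3.65 to 4.0 in the other AD libraries, against 4.33 and 4.65 in Ctrl libraries 1 and 4 and 3.56 to 4.01 in the remaining Ctrl libraries. The part of neighbouring tissue in the Gpr151 value was not tested.

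All 20 genes of cholesterol synthesis were lower in AD, under each scaling tried, with a median log2 fold change of -0.14 and 2 at an unadjusted p under 0.05, Sqle, which epoxidises squalene (-0.20), and Sc5d, a sterol desaturase (-0.15). Ctrl library 3 was the highest for both, and without it the list median was -0.028. Sqle was 97.5 there and 62.1 to 72.1 in the other Ctrl libraries, against 55.5 to 75.5 in AD libraries. Interferon-induced genes gave 27 of 35 lower, a median of -0.08 and 2 at an unadjusted p under 0.05, Isg15 (-0.42) and Ifit3 (-0.45). Over all genes 2.16% were lower at that threshold. Ifit3 was highest in Ctrl library 5 at 36.9, and its AD libraries, from 12.7 to 20.1, lay within the Ctrl range of 10.5 to 36.9. Without the 4 libraries of highest Inhba the interferon median was 0.024, and with 1 library left out it lay between -0.18 (Ctrl library 2) and -0.0023 (Ctrl library 5). GABA receptor genes gave 12 of 15 lower and a median of -0.09, with Gabra4 at -0.24 and Gabrb1 at -0.19 at an unadjusted p under 0.05.

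Genes closest to the injected protein differed little. Mapt, which encodes tau, had 467, 513, 509, 510, 482 and 560 in AD libraries 1 to 6, against 481, 510, 507, 452.5 and 473 in Ctrl libraries 1 to 5. The groups overlapped, with AD library 6 the highest, and the log2 fold change was 0.06, with a 95% interval of -0.02 to 0.15. App, the amyloid precursor, had 0.05 (95% interval -0.04 to 0.14). Of 30 genes of tau and its kinases, 16 were higher with a median of 0.01 and 1 at an unadjusted p under 0.05, Fkbp4, an immunophilin that binds tau, at 0.13. That 1 of 30 is near the share of all genes higher at that threshold, 2.88%. Genes of amyloid precursor processing gave 12 of 20 higher and a median of 0.05, with the gamma-secretase subunits Aph1a at 0.12 and Psenen at 0.10 at an unadjusted p under 0.05. Genes at loci of Alzheimer's disease risk gave 14 of 26 and 0.04, and genes of heparan sulphate and tau uptake 15 of 23 and 0.03.

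Neuronal and vascular lists lay near 0 among all 11 libraries, and blood cell genes did not. Of 8 blood cell genes 7 were higher, with 0 at an unadjusted p under 0.05. Their median log2 fold change of 0.31 was the highest of the 46 lists. Without AD libraries 1 and 4 it was 0.25, again with 7 of 8 higher. Hippocampal neuron markers gave 8 of 15 higher with a median of 0.01, presynaptic genes 7 of 23 with -0.04 and postsynaptic genes 12 of 23 with 0.0012. Medians were 0.02 for CA2 and CA3 markers, 0.02 for interneuron markers, -0.02 for cortex and subiculum, 0.08 for striatum, -0.03 for neurogenesis, 0.02 for endothelium and 0.01 for pericytes and smooth muscle. Ependymal genes gave 8 of 11 higher and 0.04, and meningeal genes 5 of 15 and -0.06. Heat shock and unfolded protein response genes gave 12 of 22 and 0.02. Glucocorticoid-induced genes were mostly higher, 15 of 18, with a median of 0.05 and 0 at an unadjusted p under 0.05. All 20 choroid plexus genes were lower, with a median of -0.24 and 0 at an unadjusted p under 0.05, and AD library 3 was the lowest. Without AD library 3 the median was 0.29, the opposite direction. Ttr, the transthyretin made by that epithelium, was 112 in AD library 3 and 1777 to 7214 in the other AD libraries, against 2107 to 5414 in Ctrl libraries.

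A few large differences rested on few libraries. Gh, growth hormone, had the largest log2 fold change among genes at an unadjusted p under 0.05, 2.27 (SE 1.0, limma adjusted p = 0.916). It had 61.5, 1.71, 23.4, 0.566, 48.1 and 11.2 in AD libraries 1 to 6, against 1.77, 14.6, 0.132, 0.883 and 0.267 in Ctrl libraries 1 to 5. AD libraries 1, 3 and 5 and, within its group, Ctrl library 2 were the highest, and these are the 4 libraries with high Xist. Without them the log2 fold change was 1.17. Igkv1-135, an immunoglobulin light chain segment, was 97.6 in AD library 4, 6.67 in AD library 1 and no more than 0.102 in the other AD libraries, against 0 to 0.302 in Ctrl libraries. DESeq2 called it (adjusted p = 0.00939) and limma did not (0.916).

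Sexes were unevenly spread over the groups, 3 of 6 AD and 1 of 5 Ctrl libraries having high Xist, so a comparison among the 7 libraries with Y-linked reads was added after seeing the data (3 AD against 4 Ctrl, with the spread taken from all 25 remaining libraries of the cohort). It called 420 genes (limma, 2.1% of genes tested), 273 higher in AD (1.37%) and 147 lower (0.736%), and 3741 genes (18.7%) had an unadjusted p under 0.05 (11.7% higher and 7% lower). In 7.45% of genes every AD library lay above every Ctrl library of the 7, and in 3.96% below. Rasd2, a small GTPase enriched in striatal and hippocampal neurons, rose by 0.68 (limma adjusted p = 3.949e-04). It had 60.2, 61.2 and 65.0 in AD libraries 2, 4 and 6, against 43.2, 34.2, 37.9 and 39.0 in Ctrl libraries 1, 3, 4 and 5. Jph4, a junctophilin that ties the endoplasmic reticulum to the cell membrane, rose by 0.48 (limma adjusted p = 9.874e-04), and Pip5k1b, a lipid kinase, by 0.43 (limma adjusted p = 0.00169).

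Among the 15 lower genes with the smallest p-values were Malat1 and Hnrnpdl. Malat1, an abundant nuclear RNA, fell by 1.07 on the log2 scale (limma adjusted p = 0.00452), with 166, 218 and 135 in AD libraries 2, 4 and 6, against 284, 325, 416 and 418 in Ctrl libraries 1, 3, 4 and 5. Hnrnpdl, an RNA-binding protein gene, fell by 0.43 (limma adjusted p = 0.0116), with 126, 122 and 104.0 in those AD libraries, against 139, 172, 166 and 159 in those Ctrl libraries. Of 10 nuclear noncoding RNAs 4 were called lower, Malat1, Snhg11, Rian and Kcnq1ot1. Penk fell by 1.49, Acvr1c by 1.11 and Rgs4 by 0.60, and Pam by 0.25 (limma adjusted p from 3.949e-04 for Penk to 0.03825 for Pam). Blood cell genes were called higher in 4 of 8, among them Hbb-bs, a haemoglobin chain, at 2.27 (limma adjusted p = 0.0407). Hbb-bs was 22.9, 24.4 and 34.0 in AD libraries 2, 4 and 6, against 6.57, 1.88, 8.37 and 4.36 in Ctrl libraries 1, 3, 4 and 5. The part of RNA quality and blood content in these calls was not tested.

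Of 25 ribosomal protein genes, 24 were higher in this comparison and 18 had an unadjusted p under 0.05, with 1 called, Rps15. The interferon list had 33 of 35 lower, with 1 called, Cxcl10, at -1.19. Of 23 postsynaptic genes 16 were higher and 3 were called higher, Dlg4, Shank3 and Camk2a, beside 1.37% of all genes. With relative-log-expression factors 0 of the 23 were called, and no presynaptic gene was called. Of 14 interneuron markers 7 were higher and 2 lower at an unadjusted p under 0.05. Of 22 heat shock and unfolded protein response genes 10 were higher at that threshold, beside 11.7% of all genes. No member of the CSF1 and TREM2 list was called, with 26 of 30 higher and a median of 0.16. The choroid plexus median was 0.86, with 20 of 20 higher, the opposite direction to that among all 11 libraries. The division into higher and lower calls moved with the scaling. Without scaling factors 105 of 308 calls were higher, and with relative-log-expression factors 140 of 288, against 273 of 420.

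The 4 libraries with high Xist did not line up by group for these genes. Over the 420 genes, Ctrl library 2 lay on the AD side of the midpoint for 279 genes (66.4%), AD library 1 for 160 (38.1%), AD library 5 for 122 and AD library 3 for 17 (4.05%). Rasd2 was 57.4 in Ctrl library 2, and 46.5, 29.6 and 45.9 in AD libraries 1, 3 and 5. The difference of the AD effect between sexes, Y-linked minus Xist libraries, was called for 106 genes (0.531%), with 9.81% of genes higher and 6.08% lower at an unadjusted p under 0.05, and its Xist side rests on the single Ctrl library 2, which was assumed to vary like the other groups.

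The 420 calls depended on the fit. With only the 7 libraries compared 0 genes were called, with 2275 at an unadjusted p under 0.05, and with a replicate block 27. With Malat1 as a covariate 10 were called, all lower, including Penk at -1.82, Acvr1c at -1.77, Bmp3, a bone morphogenetic protein, at -2.36, Npy, neuropeptide Y, at -1.68 and Rgs4 at -0.99. Without AD library 6 the count was 54, of which 48 were among the 420. It was 135 without AD library 4, 179 without Ctrl library 3, 237 without Ctrl library 4, 761 without AD library 2 and 792 without Ctrl library 5.

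**Figure D4:**
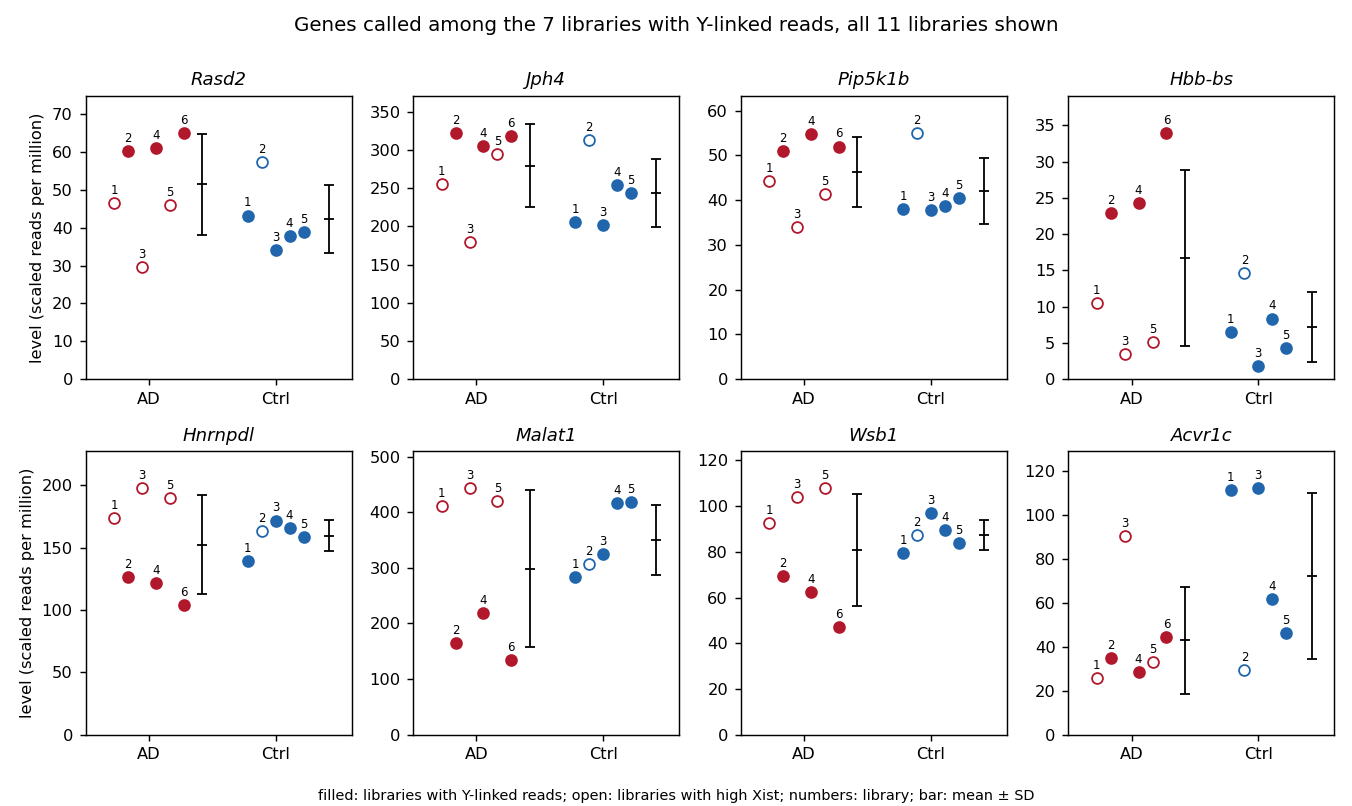
Levels of 8 genes called among the 7 libraries with Y-linked reads (filled), shown in all AD (red, left) and Ctrl libraries (blue, right), in scaled CPM on linear axes from 0, with mean ± SD over all libraries of a group. Filled circles separate for each gene, while the open circle of Ctrl library 2 lies near the filled AD circles for Rasd2, Jph4 and Pip5k1b.

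Whether the AD effect at 1 mpi differed from that at other times or ages was tested as a difference of differences. No gene passed against 3 mpi, 5 mpi or the 12-month cohort at 1 mpi (limma, percent called 0 in each), and edgeR and DESeq2 called 0 genes in each too. Against 3 mpi, 1049 genes (5.25%) had an unadjusted p under 0.05, 3.55% with the higher log2 fold change at 1 mpi and 1.7% with the lower. Higher and lower refer here to signed fold changes, so they do not rank the effects by size. Against 5 mpi there were 813 (4.07%), 2.52% higher and 1.55% lower at 1 mpi. Against the 12-month cohort there were 1150 of 21297 (5.4%), 2.92% higher and 2.48% lower in the 3-month cohort. Csf1 had the smallest p-value against 5 mpi, with an AD effect of 0.29 at 1 mpi and -0.21 at 5 mpi, a difference of 0.51 (SE 0.11, limma adjusted p = 0.648). Lhfpl2 had 0.17 at 1 mpi and -0.38 at 5 mpi, a difference of 0.55 (SE 0.12, limma adjusted p = 0.648). The third smallest p-value was that of Dock1, with 0.22 at 1 mpi and -0.16 at 5 mpi, a difference of 0.38 (SE 0.084, limma adjusted p = 0.648). Cyth4 had 0.38 at 1 mpi, 0.09 at 3 mpi and 0.04 at 5 mpi among 3-month mice, and 0.27 among 12-month mice at 1 mpi, the last value from a joint fit of both cohorts.

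Against 3 mpi the smallest p-value was that of Mrps18b, with 0.18 at 1 mpi and -0.16 at 3 mpi, a difference of 0.33 (SE 0.076, limma adjusted p = 0.895). Against the 12-month cohort it was that of Pcdhga9, a protocadherin, with 0.23 among 3-month and -0.40 among 12-month mice (difference 0.63, SE 0.14, limma adjusted p = 0.839). Among 3-month mice Penk had -0.92 at 1 mpi, -0.22 at 3 mpi and -0.076 at 5 mpi, and among 12-month mice 0.0004 at 1 mpi. Its difference between the cohorts in the joint fit was -0.93 (limma adjusted p = 0.891), and without 3-month Ctrl library 2 it was -1.31 and passed (limma adjusted p = 0.00646). That library had the lowest Penk of its group, so this pass is no added support either.

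The lists can be set side by side over times, each with its own Ctrl libraries. Values of 3-month mice come from the deposited levels of that cohort. Those of 12-month mice come from the joint fit of both cohorts on recovered reads scaled together, so scaling and genes tested differ. Of all genes tested, 10734, 9722 and 10415 of 19976 were higher at 1, 3 and 5 mpi among 3-month mice. Among 12-month mice at 1 mpi, 10483 of 21297 were higher. CSF1 and TREM2 signalling had 28 of 30 members higher at 1 mpi, 18 at 3 mpi and 10 at 5 mpi among 3-month mice, and 29 at 1 mpi among 12-month mice, with medians of 0.22, 0.05, -0.04 and 0.24. Disease-associated microglial genes had 27 of 30, 22, 3 and 27, with medians of 0.18, 0.10, -0.16 and 0.34. Myelin genes had 20 of 20, 5, 6 and 20, with medians of 0.15, -0.06, -0.09 and 0.33. Choroid plexus genes, a marker of neighbouring tissue, had medians of -0.24, 0.26, -1.47 and 1.40. Activity-induced secreted genes had medians of -0.26, -0.02, -0.04 and 0.01, and interferon genes -0.08, 0.22, -0.15 and 0.38. No difference between these list values was tested.

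**Figure D5:**
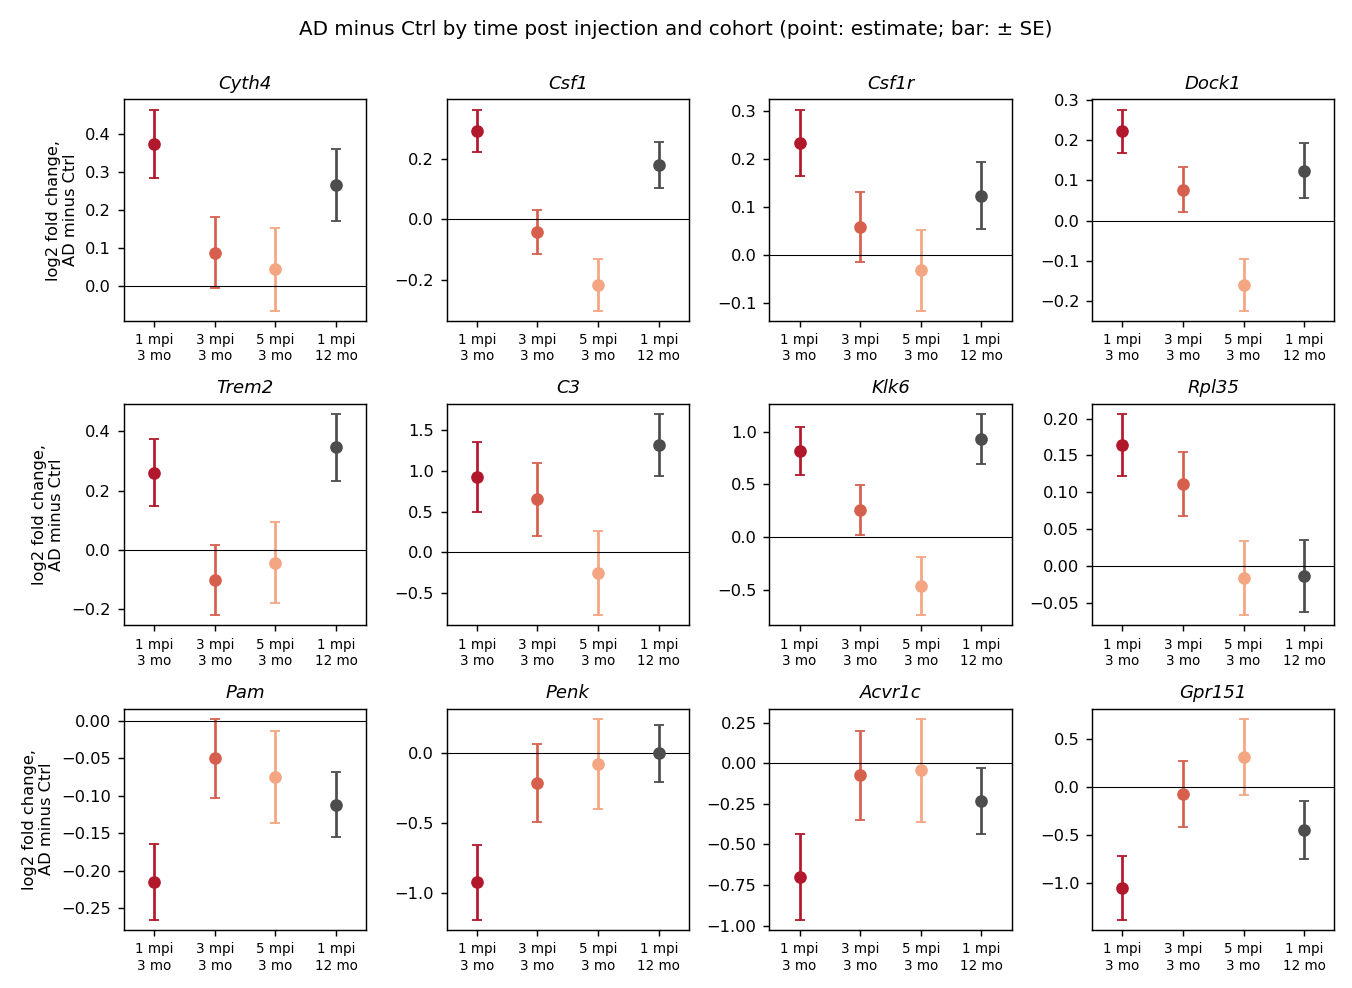
Log2 fold changes, AD minus Ctrl, of 12 genes at 1, 3 and 5 mpi in 3-month mice and at 1 mpi in 12-month mice (points are limma estimates, bars ± SE, linear axes that differ between panels). The 12-month points come from the joint fit of both cohorts. Csf1 and Dock1 stand above 0 at 1 mpi and below 0 at 5 mpi, and Penk stands at -0.92 at 1 mpi in 3-month mice and near 0 in 12-month mice.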

How the data were processed

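Per the labels' protocols, poly(A) RNA was isolated with NEBNext reagents and primed at random. The tools named per the submitters' processing notes are STAR, Picard and edgeR, with build GRCm38. Their versions, the annotation and the use of strand are not stated there. Each deposited value is a signal for 1 gene in 1 library, by its steps a CPM divided by 1 factor per library. Dividing by the value of 1 read gave whole reads for every value at a tolerance of 0.01.

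limma-trend (limma 3.58.1, R 4.3.3) was fitted to log2(value + 1), which understates changes of low genes, over the 6 groups of the 3-month cohort (29 libraries), after edgeR 4.0.16's filterByExpr on recovered reads (19976 of 55421 genes). Age was compared on recovered reads scaled together (21297 genes). P-values were adjusted by Benjamini-Hochberg. edgeR's quasi-likelihood test and DESeq2 1.42.0 were alternatives. The steps were tested on simulated data.

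Named genes were the 15 smallest p-values each way and the 10 largest changes each way at an unadjusted p under 0.05, with a mean log2 level of at least 1, genes called by any tool, and fixed genes; for differences between times and ages and for the comparison by sex, the smallest p-values. List members are named beyond these. The members and the 46 lists were chosen with earlier results of these data known, and the comparison by sex was added after seeing the data. Replicates differed beyond counting noise (chi-square over its degrees of freedom was at least 13.4 for each pair). Positions are from GENCODE vM21. Some genes are not reported here.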

Additional observations from a re-analysis of the deposited data

Results flagged for a closer look

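Of 190 checks of 1 gene or list in 1 group, 9 (4.74%) had a library set apart by its gap to the nearest other library, and chance gives about 1 in 20. AD library 3 was above the other AD libraries for Penk (49.9, next 27.0), Pappa (4.60, next 2.33), Lrrc55 (35.1, next 20.4), Gfap (1908, next 927) and Serpina3n (269, next 142). AD library 4 was apart for Igkv1-135 (97.6, next 6.67) and AD library 1 for the mean log2 level of thalamus and habenula markers (5.12, next 4.0). Ctrl library 1 was apart for neurogenesis genes (3.73, next 3.56), and Ctrl library 2 for nuclear noncoding RNAs (6.69, next 5.82), a list that holds Xist.

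The AD effect differed between libraries with Y-linked reads and libraries with high Xist for 106 genes (limma interaction, adjusted p under 0.05), with a single Ctrl library on the Xist side. The genes given next were chosen for the smallest p-values among the Y-linked libraries, a choice that favours such a difference, so their number is no support for one. The difference, Y-linked minus Xist, was positive for Rasd2 (1.19), Lypd1 (0.97), Pip5k1b (0.89), Jph4 (0.87), Kcnip2 (0.85), Cachd1 (0.73), Galnt16 (0.69), Irs2 (0.66), Spata2 (0.56), Anapc16 (0.43) and Slc25a23 (0.42). It was negative for Penk (-2.27), Malat1 (-1.53), Plod2 (-1.11), Wsb1 (-0.77) and Cep192 (-0.74).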

How the results depend on the processing

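The count of 0 genes stayed at 0 in 27 of 30 alternatives. DESeq2 called 2, leaving out 1 library gave 0 to 2, with 2 without Ctrl library 2, and leaving out the 4 libraries with high Xist gave 420. Unadjusted counts ran from 402 with only the compared groups to 3741 without the 4 libraries with high Xist, and to 2326 with 1 library left out (AD library 3). Differences from 3 and 5 mpi gave 0 throughout, and that from the 12-month cohort 0 to 3 with a library left out. The 420 calls became 0 with only the 7 libraries, 120 with 1 mean per group and sex, 275 by edgeR, 818 by DESeq2, 10 with Malat1 as a covariate, 27 with the replicate block, and 54 to 792 with a library left out. The causes were not tested.

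Of 63 genes, 58 kept their direction in every alternative. Gfap reversed by edgeR (-0.00013), by DESeq2 (-0.0013), with the choroid plexus covariate (-0.036), with the sex-linked covariate (-0.010) and without the high-Xist libraries (-0.45), and ran from -0.20 to 0.25 with a library left out. Serpina3n reversed with the choroid plexus covariate (-0.024) and without the high-Xist libraries (-0.34), and ran from -0.20 to 0.20. C4b was -0.042 without the high-Xist libraries, Inhba 0.18 with the activity covariate, and Fos ran from -0.076 to 0.24.

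Whether replicate numbers pair the libraries is not settled by these values. The correlations of deviations for numbers 1 to 5 were 0.12, 0.18, 0.64, -0.07 and 0.01. The same number was the best partner for numbers 2 and 3, and not for 1, 4 and 5. The replicate block called 0 genes among the 11 libraries, and 27 in the comparison of libraries with Y-linked reads.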
